A study of Mus musculus with 6 samples.

Results

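The genes described here lie just distal to Spred1 on mouse chromosome 2, in the stretch from 117.01 to 122 Mb of build mm9, on the side of higher coordinates. They were taken by position alone: every probe other than controls that the scanner files place with its start in that interval was kept apart, and the probes of Spred1 itself were left out. This gave 130 of the array's 34650 gene names, represented by 209 of its 55681 probes. Of the 209, 126 carry a RefSeq mRNA accession and 34 were designed to intervals of long intergenic non-coding RNA (lincRNA), with the rest on Ensembl models, other transcripts or no named gene.

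Transcript levels were measured in sorted mouse bone marrow cells lacking Spred1 (KO, 3 arrays) and in wild-type cells (WT, 3 arrays), all labelled as strain C57BL/6, with no treatment and no age given. The sort took c-Kit-positive, Sca-1-positive cells without lineage markers or CD48, which are rich in blood stem cells and early progenitors, and each sample was hybridised to its own 1-colour Agilent array. The deleted part of Spred1, the way the allele was made and the strain of the cells it was made in are not given in the sources used here. Neither do the labels say whether the numbered samples of a genotype came from separate animals, so p-values rest on the spread between the samples as labelled, part of which may be technical.

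Spred1 encodes a membrane-associated inhibitor of Ras-ERK signalling, the cascade that relays growth factor signals to the nucleus. Its distal neighbours have no shared function: they include genes of the mitotic spindle and DNA repair (Bub1b, Knl1, Trp53bp1, Nusap1), of membrane traffic (Snap23, Vps18, Ehd4), of intermediary metabolism (Ivd, Chac1), a cluster of cytosolic phospholipases and of transglutaminases, and at the far end B2m, the light chain of the class I major histocompatibility complex.

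The probes are DNA oligonucleotides of 60 bases, printed here as the scanner files give them with the position and strand in mm9. The first set holds the 4 probes that passed the test over the whole array. The second holds the other Ccdc32 probe, the unnamed probe beside Gm14207, and the tested probes of Ino80 and Snap23, genes whose probes did not move together.

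lincRNA probe A_30_P01033025, chr2:117024263-117024322, minus strand: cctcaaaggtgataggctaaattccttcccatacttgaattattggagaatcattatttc
Ccdc32 probe A_55_P2180196, chr2:118847581-118847640, minus strand: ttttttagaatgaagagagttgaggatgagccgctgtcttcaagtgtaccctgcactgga
Gm14207 probe A_55_P2155848, chr2:119147094-119147153, minus strand: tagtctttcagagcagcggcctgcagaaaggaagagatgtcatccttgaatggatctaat
Jmjd7 probe A_51_P288549, chr2:119857970-119858029, plus strand: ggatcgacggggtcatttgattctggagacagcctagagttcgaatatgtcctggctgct

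Ccdc32 probe A_52_P305182, chr2:118843986-118844045, minus strand: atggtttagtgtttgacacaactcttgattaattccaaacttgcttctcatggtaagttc
Unnamed probe A_66_P118093, chr2:119146923-119146982, minus strand: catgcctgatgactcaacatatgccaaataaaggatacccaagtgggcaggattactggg
Ino80 probe A_55_P2037883, chr2:119198816-119198875, minus strand: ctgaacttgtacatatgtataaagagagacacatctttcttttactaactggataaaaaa
Ino80 probe A_52_P533724, chr2:119232564-119232623, minus strand: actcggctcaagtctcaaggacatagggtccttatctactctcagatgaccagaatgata
Snap23 probe A_52_P393306, chr2:120411292-120411905, plus strand: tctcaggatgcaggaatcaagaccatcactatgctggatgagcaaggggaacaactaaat
Snap23 probe A_55_P2287260, chr2:120425750-120425809, plus strand: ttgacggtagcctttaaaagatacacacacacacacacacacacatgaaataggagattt
Snap23 probe A_55_P2471798, chr2:120426853-120426912, plus strand: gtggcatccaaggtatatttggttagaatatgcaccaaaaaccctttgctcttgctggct

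The first Snap23 probe spans 614 positions of the genome with its 60 bases, so its alignment crosses a gap. The probe of Gm14207 and the unnamed probe lie beside each other on the same strand and share no base. Whether a probe lies in a coding exon or an untranslated region was not analysed here.

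Levels below are log2 signals relative to each array's 75th percentile (0 means equal to it). They are not set against each other between probes. Differences are KO minus WT on the same log2 scale, with the standard error (SE) of a limma fit over the 27796 probes that, in 1 genotype or both, the scanner software called well above background on all 3 arrays. In bulk samples fewer cells of a type and less RNA per cell cannot be told apart.

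Of the 209 member probes, 128 were tested, under 90 gene names, and 118 of these were well above background on all 6 arrays. A further 3 were so on 3 KO arrays and on fewer WT arrays, and 7 on 3 WT arrays and on fewer KO arrays. The 81 probes that were not tested comprised 62 below background on all 6 arrays and 19 measured on some arrays but on all 3 of neither genotype. The lincRNA intervals gave 8 tested probes of 34, and the RefSeq mRNAs 98 of 126. Among the genes without a tested probe were Rasgrp1, a Ras activator, Dll4, a Notch ligand, Ltk, a receptor tyrosine kinase, and Epb42 (erythrocyte band 4.2, named Epb4.2 in the array's design).

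**Figure D1:**
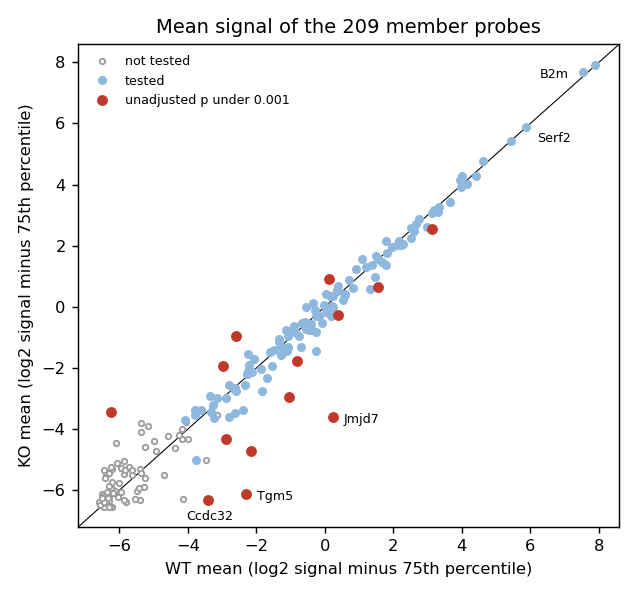
Mean signal of the 209 member probes in KO (vertical axis) against WT (horizontal axis), both as log2 signal minus the array's 75th percentile, with 3 arrays per genotype. Tested probes run along the line of equal signal, the 14 probes at an unadjusted p under 0.001 are in red, and open circles are the 81 probes that were not tested.

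The bright members differed little between the genotypes. B2m had levels of 7.72, 7.62 and 7.66 on the KO arrays, against 7.41, 7.45 and 7.76 on the WT arrays, and the difference of 0.12 ± 0.12 (SE) did not pass the limma test (adjusted p = 0.677). Serf2 stood at 5.96, 5.74 and 5.94 in KO, against 5.81, 5.79 and 6.05 in WT. For both genes the arrays of the genotypes overlap. Of the 8 members with the highest WT mean, which also include Srp14, a subunit of the signal recognition particle, and Knstrn, a spindle and kinetochore protein, differences ran from -0.13 to 0.28 and none passed.

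Transcripts of 4 member probes passed the adjusted threshold of 0.05, 1 rising and 3 falling in KO, among 128 tested. Over the whole array 9 of 27796 probes passed, or 0.0324% (0.0216% higher and 0.0108% lower in KO), and 4 of these 9 are members. All 4 had entered the test through the genotype in which they were brighter: the lincRNA, Ccdc32 and Gm14207 probes were well above background on no array of the dimmer genotype and the Jmjd7 probe on 1 of 3. Among the 118 members well above background on all 6 arrays, 0 passed the limma test, 8 had an unadjusted p under 0.001 and 33 one under 0.05. In that fit 3 of 26296 probes of the array passed and 0.27% had an unadjusted p under 0.001, against 6.78% of the members. Of the 26296, 3012 had an unadjusted limma p under 0.05. The 4 lay in the first 2.85 Mb after Spred1, at 18.3, 1842, 2141 and 2852 kb from its last probe. Each had all KO arrays on one side of all WT arrays. The arrays lay on 2 slides, scanned apart, each with both genotypes. On slide 1 (2 arrays per genotype) the differences of these probes in the same order were 2.70, -2.70, -2.69 and -4.12, and on slide 2 (1 array per genotype) 2.99, -3.38, -2.23 and -3.29. Within slide 1 none of the 4 passed (limma adjusted p from 0.0696 to 0.679).

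The member nearest to Spred1, the lincRNA probe at chr2:117024263-117024322, rose in KO. Its levels were -3.02, -3.83 and -3.49 on the KO arrays, against -6.24, -6.02 and -6.47 on the WT arrays. The probe was well above background on every KO array and on no WT array. The measured difference of 2.80 ± 0.22 (limma adjusted p = 0.0272) is therefore given as a bound, at least 1.88-fold higher in KO. This and the bounds below hold for the main processing only. They set the mean of the brighter genotype against, per array of the dimmer genotype, its own signal or the lowest one called well above background, whichever is higher. Of the other 2 probes to the same lincRNA interval, 1 was well above background on no array and 1 on 1 KO array and 2 WT arrays, and neither was tested. The call was lost without any 1 array other than KO replicate 1 (adjusted p up to 0.176), and with the slide as a block (adjusted p = 0.089). With another background correction (normexp with an offset of 50, followed by quantile normalization) the difference was 0.50 and did not pass (limma adjusted p = 0.322). An added offset by itself makes the log2 differences of dim probes smaller. Here, and below at Ccdc32, Gm14207 and Tgm5, the normexp difference is smaller than the bound.

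Ccdc32, which encodes a coiled-coil protein, was represented by a pair of probes that gave different results. The probe annotated to the Ensembl model ENSMUST00000110834 had levels of -6.29, -6.28 and -6.42 in KO, against -3.47, -3.71 and -3.04 in WT, and was above background on no KO array. It fell by 2.92 ± 0.17 on the log2 scale (limma adjusted p = 0.0121), a bound of at least 1.81-fold lower. The other probe, annotated to the RefSeq mRNA of the gene, stood at 1.33, 1.40 and 1.39 in KO, against 1.34, 1.34 and 1.48 in WT, a difference of -0.02 ± 0.09 with overlapping genotypes. The call of the first probe was lost without WT replicate 1 (adjusted p = 0.0527), KO replicate 2 (0.0701) or KO replicate 3 (0.0551), and under normexp its difference was -0.64 (adjusted p = 0.0943).

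The long non-coding RNA Gm14207 fell in KO. Levels were -5.20, -4.43 and -4.48 on the KO arrays, against -2.13, -2.13 and -2.25 on the WT arrays, and the probe was well above background on no KO array. The difference was -2.54 ± 0.21 (limma adjusted p = 0.0307), a bound of at least 4.28-fold lower. Beside it, the unnamed probe A_66_P118093 had levels of -3.29, -3.01 and -2.52 in KO, against -1.10, -0.89 and -1.18 in WT, all well above background. Its difference of -1.88 ± 0.20 missed the threshold (limma adjusted p = 0.0754), with no overlap between the genotypes. The Gm14207 call was lost without any 1 array other than KO replicate 1 (adjusted p up to 0.181), with the slide as a block (0.122) and under quantile normalization (0.0608). Under normexp the differences were -0.999 for Gm14207 and -1.10 for the unnamed probe, and both passed (adjusted p = 0.00381 and 0.0254).

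Jmjd7 encodes a jumonji-domain lysyl hydroxylase, and in mammals its gene directly precedes Pla2g4b, a cytosolic phospholipase A2. The Jmjd7 probe had levels of -4.12, -3.83 and -2.90 on the KO arrays, against 0.12, 0.18 and 0.39 on the WT arrays. It fell in KO (limma adjusted p = 0.0272). Only 1 of 3 KO arrays had the probe well above background, so the size is uncertain: the measured difference was -3.84 ± 0.30, and under normexp it was -2.30 and passed (adjusted p = 7.7e-04). The Pla2g4b probe averaged 4.14 ± 0.05 in KO and 3.96 ± 0.17 in WT (SD, n = 3 each) and differed by 0.18 ± 0.11, which did not pass (limma adjusted p = 0.541). The sequence of the Pla2g4b probe was not searched against other transcripts, so this bright signal may not come from Pla2g4b alone. The Jmjd7 call held without KO replicate 3 and was lost without any other single array (adjusted p up to 0.162).

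**Figure D2:**
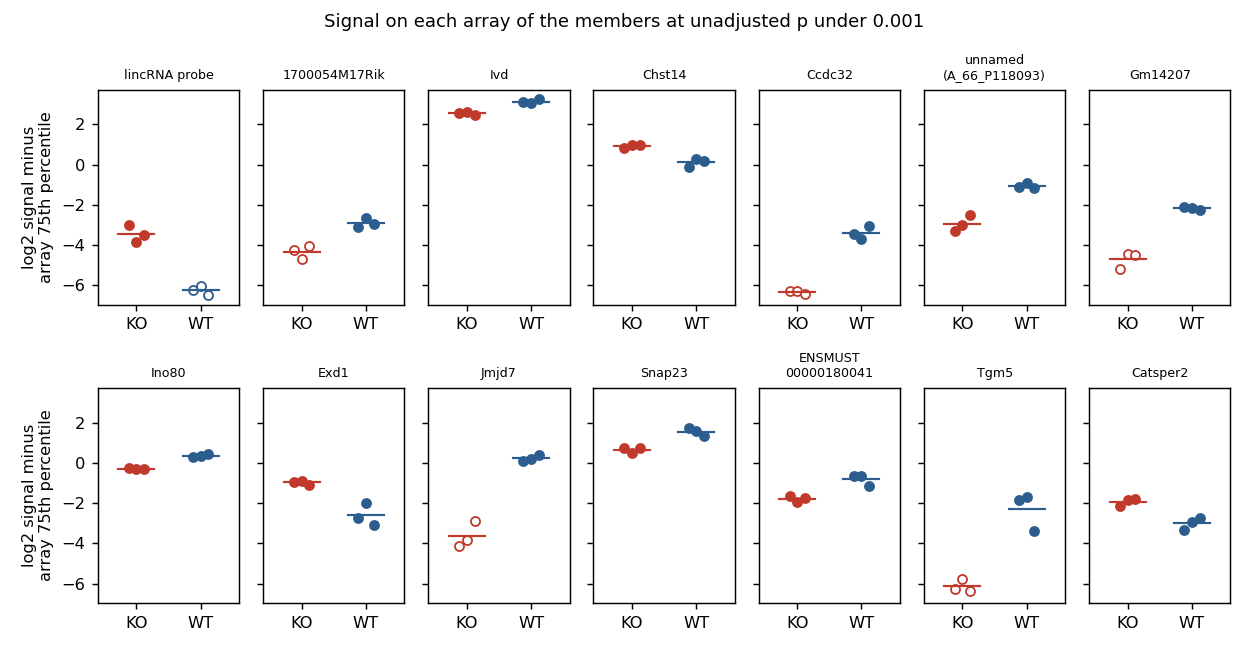
Signal on each array (points) with the genotype mean (line) for the 14 members at an unadjusted p under 0.001, in order of distance from Spred1, as log2 signal minus the array's 75th percentile; open points mark a genotype that was not well above background on all 3 arrays. In every panel the 3 KO arrays lie wholly above or wholly below the 3 WT arrays.

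At the looser rule of an unadjusted limma p under 0.001, 14 of the 128 tested members counted, or 10.9%, 4 higher and 10 lower in KO. Over all tested probes the share was 0.309% (0.216% higher and 0.0935% lower). When single arrays were left out, the count of members ran from 7, without KO replicate 3, to 12, without WT replicate 3. It stood at 8 without KO replicate 2 and at 9 without KO replicate 1 or without WT replicate 1. Over all 27796 probes the count moved too, from 86 in the main fit to 46 without KO replicate 3 and 89 without WT replicate 3. There were 108 without KO replicate 2, 62 without KO replicate 1 and 65 without WT replicate 1.

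The 10 that add to the calls above did not pass the adjusted threshold. Tgm5, a transglutaminase best known from skin, had levels of -6.27, -5.75 and -6.38 in KO, where no array was well above background, against -1.86, -1.67 and -3.37 in WT. WT replicate 3 was the lowest of the WT arrays, and the genotypes did not overlap. The difference was -3.84 ± 0.45 (limma adjusted p = 0.107, at least 3.92-fold lower), and without WT replicate 3 it was -4.37 and passed (adjusted p = 0.0182). Under normexp it was -1.18.

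Exd1, an exonuclease-domain gene of the piRNA pathway in mouse germ cells, stood at -0.93, -0.89 and -1.07 in KO, against -2.72, -1.97 and -3.06 in WT. Its difference of 1.62 ± 0.26 was the largest upward one among the members above background on all 6 arrays. Chst14, which adds sulphate to dermatan, had levels of 0.82, 0.96 and 0.99 in KO, against -0.13, 0.27 and 0.19 in WT. Both genes had every KO array above every WT array. Both probes of Catsper2, a subunit of the sperm cation channel, were higher in KO, by 1.06 ± 0.18 and 0.67 ± 0.21.

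Ivd, the mitochondrial dehydrogenase of leucine breakdown, had levels of 2.57, 2.61 and 2.49 in KO, against 3.09, 3.07 and 3.25 in WT, a difference of -0.58 ± 0.09. The spread within each genotype was small beside this gap. The non-coding RNA 1700054M17Rik had levels of -4.26, -4.70 and -4.04 in KO, against -3.11, -2.65 and -2.94 in WT, with 1 of 3 KO arrays well above background. Its measured difference was -1.43 ± 0.20, and -0.55 under normexp, so the size is uncertain. A transcript that the array's design describes as START domain containing 9 (ENSMUST00000180041) had 2 tested probes, with KO below WT at both. At the brighter of them, well above background on all 6 arrays, the difference was -0.96 ± 0.17. The other was well above background on no KO array and is bounded at 1.41-fold or more lower in KO.

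**Figure D3:**
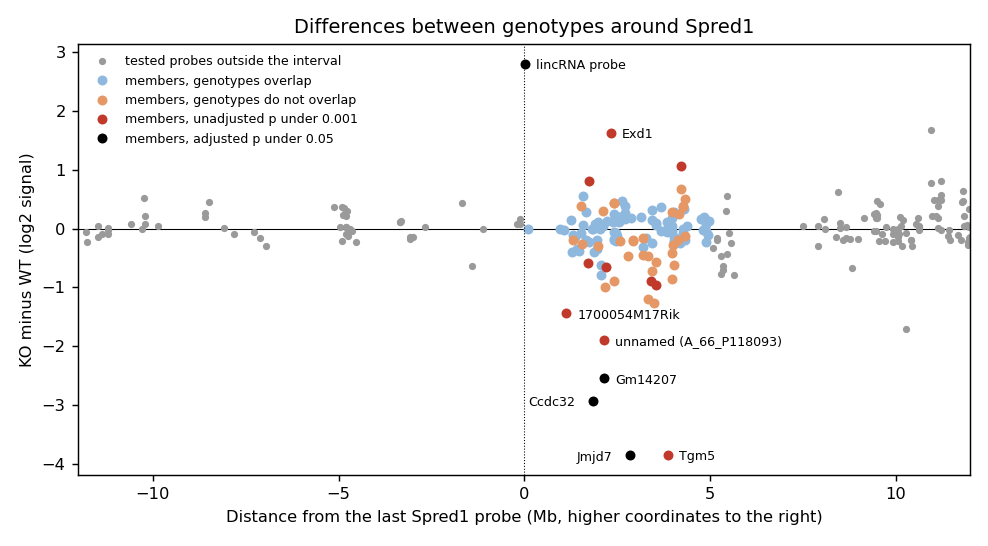
KO minus WT difference (log2 signal) of tested probes against distance from the last Spred1 probe in Mb, with members coloured by test result and tested probes outside the interval in grey and those of Spred1 left out. The 4 probes past the adjusted threshold (black) and the 10 others at an unadjusted p under 0.001 (red) lie between 18.3 kb and 4.21 Mb from Spred1.

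Several genes were represented by probes that did not move together. Among the 30 member genes with 2 or more tested probes, the median range of the differences between probes of a gene was 0.32 on the log2 scale, against 0.15 for the other 4222 genes of that kind on the array. The range reached 1.5-fold in 6 of the 30 genes, or 20%, against 4.33% of the others. It reached 2-fold in 2 genes, Ccdc32 and Snap23, or 6.67%, against 0.497%. No test was made of these shares.

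Snap23, a SNARE protein of vesicle fusion at the plasma membrane, had 3 tested probes. The probe whose alignment crosses a gap had levels of 0.74, 0.48 and 0.75 in KO, against 1.74, 1.57 and 1.33 in WT, a difference of -0.89 ± 0.14. The probe with the highest start position differed by -0.73 ± 0.16, and for both the genotypes lay apart. The brightest of the 3 averaged 4.76 ± 0.17 in KO and 4.62 ± 0.06 in WT (SD, n = 3 each), a difference of 0.14 ± 0.11 with overlapping arrays. Its sequence holds a long run of alternating c and a, and whether other transcripts add to its signal was not tested. The 2-fold range between the Snap23 probes rests on this probe.

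Ino80, the ATPase of a chromatin remodelling complex, had levels of -0.25, -0.31 and -0.30 in KO at its probe nearer to Spred1, against 0.30, 0.37 and 0.45 in WT. That probe differed by -0.66 ± 0.09, with a gap between genotypes wider than the range within either. The other Ino80 probe differed by 0.12 ± 0.10, and its genotypes overlapped. Both are annotated to the same RefSeq mRNA. Cdan1, the codanin gene mutated in a congenital dyserythropoietic anaemia of humans, showed the same split, with differences of 0.06 and -0.57 at its probes.

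In 3 of these 30 genes 1 probe lay wholly higher and another wholly lower in KO, against 41, or 0.971%, of the other 4222, again with no test. For Plcb2, a phosphoinositide-cleaving phospholipase C of blood cells, the probes stood at 0.34, 0.35 and 0.60 in KO against 0.00, 0.15 and -0.03 in WT, and at -1.42, -1.30 and -1.28 in KO against -1.06, -1.08 and -1.07 in WT. The differences were 0.39 ± 0.11 and -0.26 ± 0.08. For Mfap1a, a splicing factor, they were 0.50 ± 0.14 and -0.12 ± 0.09, and for Ppip5k1, an inositol pyrophosphate kinase, 0.24 ± 0.11 and -0.19 ± 0.09. None of these 6 probes passed the adjusted threshold.

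**Figure D4:**
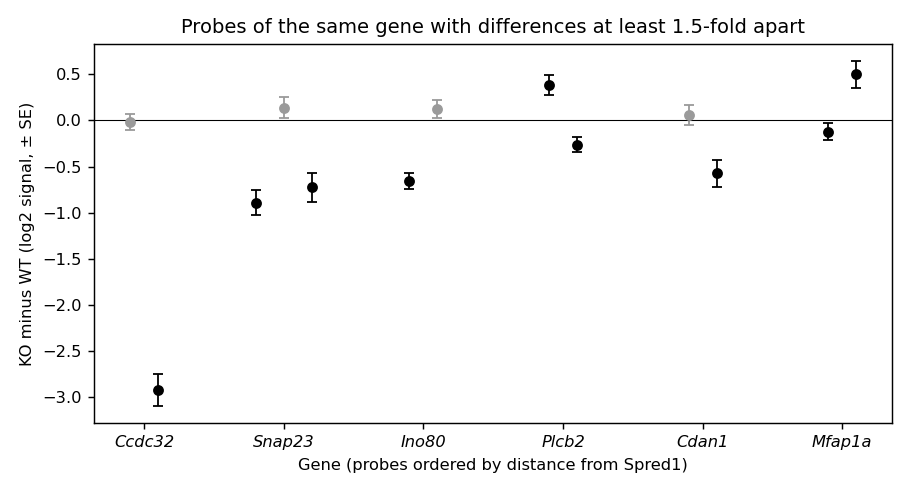
KO minus WT difference (log2 signal, ± SE, 3 arrays per genotype) at each tested probe of the 6 member genes whose probes differ by at least 1.5-fold; black points have genotypes that do not overlap and grey points genotypes that do. The Ccdc32 probes lie furthest apart, at -0.02 and -2.92. All the genes but Ccdc32 have probes on both sides of 0, and only Plcb2 and Mfap1a have black points on both sides.

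Counted by separation alone, 46 of the 128 tested members, or 35.9%, had KO arrays that did not overlap the WT arrays, 14 above and 32 below. Over all tested probes the share was 18.7% (9.24% above and 9.45% below). An exact two-sided permutation test of 3 against 3 arrays gives 0.1 for each of these probes, the smallest value it allows. A difference of at least 1.5-fold was reached by 23 members, or 18.0%, against 3.57% of all tested probes, with 18 of the 23 lower and 5 higher in KO (1.04% and 2.53% of all). Both conditions together, no overlap and at least 1.5-fold, held for 21 members, or 16.4%, against 2.27%. At an unadjusted limma p under 0.05 there were 40 members, 13 higher and 27 lower, or 31.2%, against 11.4% of all tested probes (6.72% higher and 4.72% lower). In any amount, 75 members were lower and 53 higher in KO, or 58.6% and 41.4%, against 50.3% and 49.7% of all. The median absolute difference was 0.21 for the members and 0.13 for all tested probes, whereas the median signed difference was -0.04 for the members and 0.00 for all.

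The separated probes were spread over the interval. In steps of 1 Mb from its start, 3, 29, 38, 30 and 28 probes were tested. Of these, KO lay wholly below WT in 0, 6, 10, 13 and 3, and wholly above in 1, 2, 4, 1 and 6. The fourth step thus held the most probes lower in KO and the fifth held more higher than lower. For comparison, the mirror interval of equal length before Spred1 held 27 tested probes, with 0 at an unadjusted limma p under 0.001, 4 at one under 0.05 and a median absolute difference of 0.12. The next stretch of equal length beyond the interval held 45, with 0 at an unadjusted p under 0.001, 7 at one under 0.05 and a median absolute difference of 0.19. In that stretch 9 probes, or 20.0%, had genotypes that did not overlap, near the 18.7% of all tested probes. With at least 1.5-fold as a further condition there was 1, or 2.22%, near the 2.27% of all. A difference of at least 1.5-fold, with or without overlap, was reached by 6, or 13.3%. Lower in KO in any amount were 27, or 60.0%, and these last 2 shares were near those of the members. In the 5-Mb step that starts 10 Mb from Spred1, 39 of 124 tested probes, or 31.5%, did not overlap, also near the members' share, and 1 had an unadjusted p under 0.001. On the rest of chromosome 2, without Spred1, 3 of 2039 tested probes counted at p under 0.001. These comparisons are descriptions with no test, and the interval is known to stand out from earlier results of the same arrays.

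**Figure D5:**
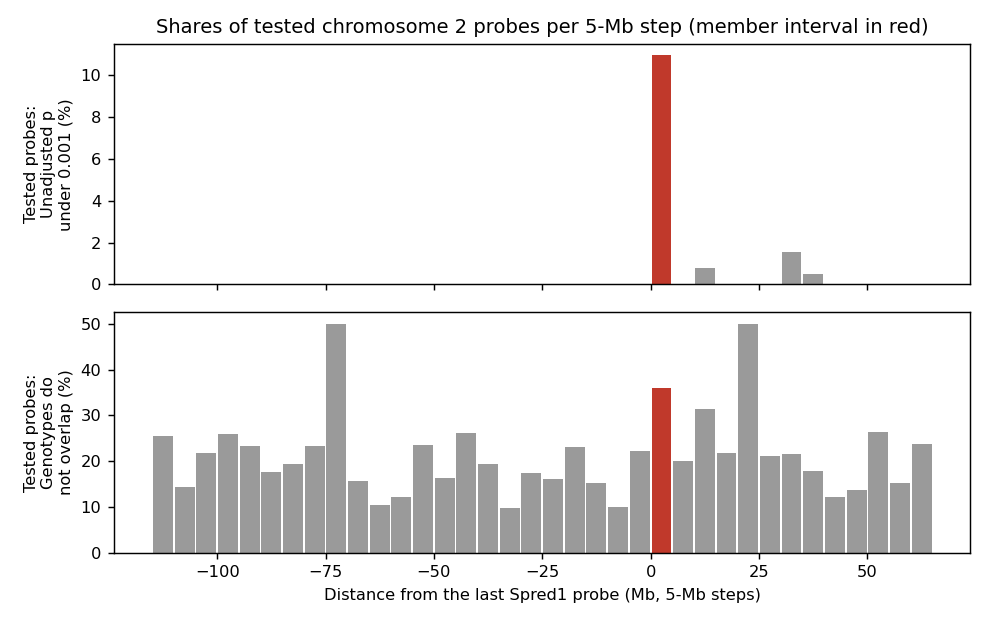
Shares of tested chromosome 2 probes per 5-Mb step of distance from the last Spred1 probe, in percent, at an unadjusted p under 0.001 (top) and with genotypes that do not overlap (bottom), with the step that holds the members in red. That step reaches 10.9% in the top panel, where no other step exceeds 1.54%; in the bottom panel it reaches 35.9%, the step from 10 to 15 Mb reaches 31.5% of 124 probes, and the 2 steps at 50% hold 10 and 6 probes.

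The genes of the mitotic spindle, centromere and DNA repair had 17 tested probes in 11 genes, of which 0 rose and 0 fell at limma's adjusted threshold and 2 had an unadjusted p under 0.05. Over all tested probes 11.4% had an unadjusted limma p under 0.05, the share to set beside this count and those of the lists below. The median difference of the 17 was -0.15 and the range -0.66 to 0.32. KO lay wholly below WT at 2 probes, Ino80 and Tubgcp4, a subunit of the gamma-tubulin ring complex (-0.61 ± 0.13), which is 11.8% of the 17, against 9.45% of all tested probes. Bub1b, the spindle checkpoint kinase, stood at -0.76, -0.92 and -0.64 in KO, against -0.15, -0.76 and -0.24 in WT. WT replicate 2 was the lowest WT array at Bub1b and at the spindle gene Nusap1, and the genotypes overlapped at each. The probes of Tubgcp4 and its neighbour Trp53bp1 on the opposite strand share 15 bases, and the Trp53bp1 probe there differed by 0.29 ± 0.19.

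Receptors and signalling genes gave 15 tested probes in 10 genes, with 0 rising and 0 falling by limma, 3 at an unadjusted p under 0.05 and a range of -0.79 to 0.46. KO lay wholly above WT at 1 (6.67%, against 9.24% of all tested probes) and wholly below at 2 (13.3%, against 9.45%). At the ends of that range were Spint1, an inhibitor of cell-surface serine proteases, and Tyro3, a receptor tyrosine kinase, whose genotypes overlapped. Eif2ak4, the kinase that senses amino acid shortage, had 3 probes at 0.14, -0.40 and -0.20. Only the last had genotypes that did not overlap, with 1.99, 2.13 and 2.09 in KO against 2.26, 2.31 and 2.23 in WT.

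Of the phospholipases and transglutaminases, with which Jmjd7 was listed for its place beside Pla2g4b, 3 of 10 probes were tested. Jmjd7 fell, whereas Tgm5 and Pla2g4b did not pass. The probes of Pla2g4d, Pla2g4e, Pla2g4f and Tgm7 were not well above background on any array. Genes of transport, sorting and protein turnover had 18 tested probes, of which 0 rose and 0 fell by limma, with 6 at an unadjusted p under 0.05. KO lay wholly below WT at 7, or 38.9%, against 9.45% of all tested probes. These include Snap23, the 2 probes of Ehd4, an endocytic recycling ATPase (-0.21 ± 0.10 and -0.19 ± 0.10), and Capn3, a calpain of muscle. Capn3 had levels of -1.48, -1.52 and -1.38 in KO, against -0.03, 0.10 and -0.87 in WT, a difference of -1.19 ± 0.25. Vps18, a tethering factor of lysosomal fusion, was higher at 1 of its 2 probes (0.30 ± 0.09).

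Metabolic genes had 11 tested probes, with 0 rising and 0 falling by limma and 2 at an unadjusted p under 0.05. KO lay wholly below WT at 4 (36.4%, against 9.45% of all tested probes) and wholly above at 2 (18.2%, against 9.24%). Beside Ivd, Chst14 and Ppip5k1 they include Chac1, which degrades glutathione. Its levels were -2.70, -4.43 and -3.02 in KO, against -2.53, -2.58 and -2.09 in WT, and KO replicate 2 was the lowest array. Genes of transcription, RNA and translation had 21 tested probes, with 0 rising and 0 falling by limma and 8 at an unadjusted p under 0.05. KO lay wholly below WT at 7 (33.3%, against 9.45% of all) and wholly above at 2 (9.52%, close to the 9.24% of all). Lcmt2, an enzyme of wybutosine synthesis in transfer RNA, was lower at both its probes (-0.86 ± 0.23 and -0.41 ± 0.09), and Zfp106, a zinc finger protein, by -0.47 ± 0.13. Pdia3, a disulphide isomerase that helps load class I molecules, differed by -0.11 ± 0.16.

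Beyond the ends of the interval, the pair of probes that precede it on the other side of Spred1 were bright. NAP095398-001 averaged 7.25 ± 0.08 in KO and 7.18 ± 0.10 in WT, and A_55_P2091055 averaged 6.69 ± 0.02 in KO and 6.54 ± 0.10 in WT (SD, n = 3 each). Neither passed the test. The last probes inside were Patl2 and B2m, and the next outside, Trim69 and 4933406J08Rik, were not tested. Spred1 itself lies just before the interval. Its probe nearest to the members, at chr2:117005906-117005965, had 50.7% of its WT signal in KO (limma adjusted p = 0.0542), the next at 90.9%, and the furthest rose 5.44-fold (adjusted p = 0.0133). Since the deleted part is not given, these probes do not check the labels.

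The genes of the sorting gate, Kit, Ly6a, Cd34 and Procr among them, were measured on all 6 arrays. Their summed level over 8 markers ran from 7.71 to 7.82 in KO and from 7.78 to 7.88 in WT. Neutrophil markers (8 of 8 tested) summed to 8.33 to 8.73 in KO and 6.54 to 8.98 in WT, and erythroid markers (3 of 5 tested) to 4.51 to 4.70 in KO and 3.50 to 5.55 in WT. WT replicate 1 was the lowest array at every neutrophil marker and at the globin genes Hbb-b1 and Hba-a1. At Mpo it stood at 1.21, against 4.49 and 4.30 on the other WT arrays. Without WT replicate 1, 0 members passed the adjusted threshold in either direction, as was also so without KO replicate 2. Among B cell markers (2 of 6 tested), Cd79a and Cd79b were well above background on all 6 arrays. Among T and NK cell markers (3 of 5 tested), Cd3e, Nkg7 and Klrb1c were too. Pax5, Ebf1 and Cd3g of these lists were above background on no array. The summed monocyte and megakaryocyte markers overlapped between the genotypes. In these lists Emr1 differed by 0.76, Slamf1 of the gate list by -0.56 and Vwf by -0.31. None of them passed (limma adjusted p = 0.399, 0.427 and 0.402). The part of other cells in the members' differences was not tested.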

How the data were processed

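RNA was labelled with Cy3 by a low-input kit and hybridised to 1 array per sample, per the labels. The submitters' processing notes name Agilent Feature Extraction 10.7.3.1. The deposited scanner files give a processed intensity for each spot, linear and already background-corrected, per the file headers. The authors' value table holds that intensity scaled by a single factor for each array.

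Control spots and outlier spots were left out, spots of a probe averaged, and log2 taken of the deposited intensity minus the array's 75th percentile. No spot was saturated. Between 28619 and 29265 probes per array were well above background, and the number of arrays limits the precision. KO was compared with WT by limma 3.58.1 in R 4.3.3 (lmFit, eBayes, no covariates), with Benjamini-Hochberg adjustment over all 27796 probes. The fit was tested on simulated data. Members, role lists and thresholds were chosen with earlier results of these data known.

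Named probes are those past the threshold, then up to 12 per direction by smallest p with no overlap and at least 1.5-fold, the other probes of those genes, the 8 brightest, up to 3 per role list, genes with probes apart in both directions, and 2 at each side of each end. Tyro3, Nusap1, Trp53bp1, Ehd4, Cdan1 and the genes named as not tested were picked with their values in view. The accessions of 128 members were found in a RefSeq table (GRCm38, names only), 4 with another symbol, such as Knl1 for Casc5. Arrays correlated at 0.987 to 0.994 across probes. Slide 1 held replicates 1 and 2 and slide 2 replicate 3 of both genotypes, scanned apart. Alternatives were another normalization, another background correction (normexp with an offset of 50, then quantile normalization), filter, prior, slide and replicate blocks, and each array left out.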

Additional observations from a re-analysis of the deposited data

How the results depend on the processing

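Of the named probes, the 17 taken by call or by smallest p in each direction were recomputed under each setting that kept them. None of these differences changed sign, which for most settings was fixed in advance. All 17 had genotypes that did not overlap, so leaving out an array or taking 1 slide could not reverse a sign. The blocks, the prior and the filters leave the difference itself unchanged. With the slide as a block the calls of the lincRNA probe (adjusted p = 0.089) and Gm14207 (0.122) were lost and those of Ccdc32 and Jmjd7 held. The calls past the adjusted threshold (1 higher and 3 lower in KO) numbered 0 and 0 without the filter on dim probes, among probes well above background on all 6 arrays and within slide 1. They were 0 higher under normexp, 0 higher when slide was a block, and 5 lower with a trend in the prior variance. Leaving out 1 array gave 0 to 1 higher and 0 to 2 lower. At an unadjusted p under 0.001 (4 higher, 10 lower), 1 was higher without the filter and 1 within slide 1, and 5 were lower among probes above background on all 6 arrays. Members up to 119.5 Mb gave 6 lower, and those beyond it 1 higher and 4 lower. Leaving out 1 array gave 1 to 3 higher and 6 to 9 lower. Over all probes and both directions, 127 of 55681 counted without the filter and 33 of 27796 within slide 1. Among probes above background on all 6 arrays 71 of 26296 did. For the separated probes that follow, shares over all probes under these settings are not given. Probes with KO wholly above WT (14) numbered 25 without the filter, 9 with 1 probe per gene name, 27 within slide 1 and 16 to 25 with 1 array left out; where fewer arrays enter, separation is easier by construction. The median difference of the members was 0.0603 without the filter. The filters, 1 probe per gene name and the split at 119.5 Mb also change how many member probes enter. There were 209 without the filter and 118 among probes above background on all 6 arrays, against 128 in the main fit. The cause of the remaining shifts was not tested. Slide 2 holds 1 array per genotype and gave no test.

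With the replicate number as a block, 0 passed in either direction, and members lower at an unadjusted p under 0.001 numbered 6. Same-numbered samples correlated in their deviations at -0.019, 0.142 and 0.084, so the numbers were not taken to pair the samples. Many members lie near background, where the size of a difference is least certain.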
